A study of Mus musculus with 6 samples.

Results

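Cdkn1a and 9 other genes grouped as targets of the transcription factor p53 were followed in mouse hearts: Cdkn1a, Phlda3, Bcl2l1, Mdm2, Ccng1, Trp53inp1, Sesn1, Sesn2, Bax and Eda2r. They were listed by name with earlier results of these libraries known, and Cdkn1a was picked from its level across the groups, so the values below describe the 10 genes and do not test p53 activity. The 10 genes stand among 29385 genes measured, and all 10 were among the 16804 genes that passed the filter on low counts. Poly(A) RNA was sequenced from 6 heart samples in 3 groups of 2: RH/RQ hearts given AAV-hpCas13d, RH/RQ hearts given vehicle, and RH/+ hearts given vehicle, named by their Myh6 genotype. Myh6 encodes alpha-MHC, the myosin motor that predominates in the ventricles of adult mice, and every sample carried the RH allele. The labels do not spell out the RH and RQ changes, the route, the dose or the promoter of the vector. AAV-hpCas13d is an adeno-associated virus that carries a form of Cas13d, an enzyme that cuts RNA where a guide RNA directs it. Hearts were taken 12 months after the dose given to newborns. The labels name no animals, so the p-values measure the spread between these libraries only.

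p53 is held low in unstressed cells by the ubiquitin ligase MDM2 and accumulates after DNA damage and other stress. It then binds a site made of a pair of short motifs and switches on genes that stop the cell cycle (Cdkn1a), restrain growth signals (Sesn1, Sesn2, Phlda3), promote cell death (Bax, Trp53inp1, Eda2r) and feed back on p53 itself (Mdm2, Ccng1). Cdkn1a encodes p21, an inhibitor of cyclin-dependent kinases, and in heart muscle, which divides little after birth, it also responds to signals other than p53.

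Levels are CPM, the reads of a gene scaled to the total of its library, from libraries of 36269261 to 51017058 reads. A count of 3 reads, the most that a count of 0 would allow, was 0.0588 to 0.0827 CPM, which covers counting error only. Fold changes are differences of log2(CPM + 1) from 1 limma fit of the 6 libraries. Adjustment was by Benjamini-Hochberg over the 16804 genes, with calls at an adjusted p under 0.05. Shares of all genes called, given below, are those of limma at that threshold. None is given for counts at an unadjusted p or with edgeR or DESeq2. The groups differed in the sex-linked pattern. The female-specific RNA Xist, which shuts down one X chromosome, was at 299 and 326 CPM in treated hearts, and at 265 to 280 CPM in RH/+ vehicle hearts, against values near 0 in RH/RQ vehicle hearts, in which the Y-linked genes were detected. The contrasts that use the RH/RQ vehicle libraries therefore cannot be told apart from sex. Treated and RH/+ hearts had the same sex-linked pattern. Between them limma called 0 of 5 sex-linked genes, as did edgeR and DESeq2, and 0 passed an unadjusted p under 0.05. Treated and RH/+ hearts differ in both Myh6 genotype and treatment, which cannot be told apart in their contrast. No contrast therefore differs in treatment alone. Summed fibroblast markers (Pdgfra, Col1a1, Dcn, Tcf21) were at 938 to 1097 CPM in treated hearts, 972 to 1070 CPM in RH/RQ vehicle hearts and 625 to 670 CPM in RH/+ vehicle hearts. Summed cardiomyocyte markers (Actc1, Tnnt2, Tnni3, Myl2, Ryr2) were at 33879 to 34672, 30399 to 30690 and 35960 to 37024 CPM in the same order, and the heart label fits its defining markers. By gene, limma called 0 of the 5 cardiomyocyte markers in each contrast. Of these, 1 had a log2 fold change above 0 in RH/RQ vehicle over RH/+, 4 in treated over RH/RQ vehicle and 2 in treated over RH/+ hearts. For fibroblast markers it was 3 of 4 in each contrast. Of the atrial markers, Nppa, also a stress gene of the ventricle, was at 428 and 753 CPM in treated hearts against 110 to 143 CPM in the vehicle groups, while Myl7 and Sln were at or below 0.696 CPM in every library. Fewer cells of a type and less RNA per cell cannot be told apart in whole tissue, and the part of these shifts in the values below was not tested.

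Of the 10 genes, 9 had promoter windows in RefSeq on GRCm38.p6, 13 windows in all, each 250 bases before to 50 after an annotated start. Trp53inp1 is named only. The p53 half-site, the 10-base motif bound by one dimer of the p53 tetramer, reads alike on both strands. It was found in 5 of the 13 windows, 1 window each of Cdkn1a, Mdm2, Ccng1, Sesn1 and Bax, and in 8.36% of 32851 windows of all genes. A full site, a pair of half-sites with up to 13 bases between and at most 1 base off in all, was found in 3 windows, those of Cdkn1a, Ccng1 and Bax, and in 1.09% of all windows. The 10 genes were listed as p53 targets, so these shares are no test of the list. The 4 windows shown are both starts of Cdkn1a, whose level differed most between the groups, Mdm2, which holds a half-site and was called in no comparison, and Bcl2l1, which was called and holds none. These windows were picked with the calls known, so they do not relate half-sites to calls. Each runs 5′ to 3′ along the gene, and capitals mark half-sites.
Cdkn1a, upstream start, chr17:29090729-29091028, plus strand: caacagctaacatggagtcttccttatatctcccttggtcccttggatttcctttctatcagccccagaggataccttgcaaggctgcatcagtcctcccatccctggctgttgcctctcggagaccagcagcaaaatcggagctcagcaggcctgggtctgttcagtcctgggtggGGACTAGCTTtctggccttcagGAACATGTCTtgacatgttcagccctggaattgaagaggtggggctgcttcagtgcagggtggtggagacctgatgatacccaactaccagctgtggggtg
Cdkn1a, downstream start, chr17:29093519-29093818, plus strand: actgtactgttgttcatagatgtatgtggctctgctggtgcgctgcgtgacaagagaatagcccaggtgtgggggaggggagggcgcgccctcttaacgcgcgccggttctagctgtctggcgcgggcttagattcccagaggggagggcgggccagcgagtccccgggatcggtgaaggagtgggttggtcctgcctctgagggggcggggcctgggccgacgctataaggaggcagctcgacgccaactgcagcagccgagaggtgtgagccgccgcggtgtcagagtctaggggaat
Mdm2, chr10:117710709-117711008, minus strand: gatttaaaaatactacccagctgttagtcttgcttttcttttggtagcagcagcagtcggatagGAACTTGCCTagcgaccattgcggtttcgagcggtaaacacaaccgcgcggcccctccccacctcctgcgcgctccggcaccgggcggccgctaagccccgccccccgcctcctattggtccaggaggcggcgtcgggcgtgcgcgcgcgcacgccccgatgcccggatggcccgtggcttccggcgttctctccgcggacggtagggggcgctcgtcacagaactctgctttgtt
Bcl2l1, most upstream start, chr2:152831679-152831978, minus strand: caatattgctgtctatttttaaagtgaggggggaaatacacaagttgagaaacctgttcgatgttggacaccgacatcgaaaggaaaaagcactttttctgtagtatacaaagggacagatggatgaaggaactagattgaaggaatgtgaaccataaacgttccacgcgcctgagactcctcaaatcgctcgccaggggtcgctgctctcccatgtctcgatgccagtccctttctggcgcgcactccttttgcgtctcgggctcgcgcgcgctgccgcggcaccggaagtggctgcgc

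The upstream Cdkn1a window holds half-sites whose first bases lie at -73 and -51, counted from the annotated start. The half-site GAACATGTCT is followed without a gap by a second copy with 1 base off, which makes the full site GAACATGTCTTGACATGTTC. The half-sites at -73 and -51, with 12 bases between, make another full site, with 0 bases off. In mouse and human a p53 site well upstream of the principal Cdkn1a start is known from earlier work. The downstream window begins from a start 2790 bases further on and holds no half-site. In Mdm2 the half-site GAACTTGCCT begins at -186. The GC box GGGCGG, searched on both strands, was in 35.7% of all windows and TATAAA, searched likewise, in 13.6%. These matches describe the windows and say nothing of binding in these hearts.

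Cdkn1a (ENSMUSG00000023067, chromosome 17, 29090976 to 29100727, plus strand) was highest in treated hearts and lowest in RH/+ vehicle hearts. It was at 42.0 and 42.8 CPM in treated RH/RQ hearts, at 33.5 and 34.2 CPM in vehicle RH/RQ hearts, and at 19.5 and 22.4 CPM in RH/+ vehicle hearts. No group overlapped another, and the spread within each group was small beside the distance to RH/+ hearts. The group means were 42.4 ± 0.6, 33.9 ± 0.5 and 20.9 ± 2.1 CPM (SD, n = 2 each). RH/RQ vehicle hearts were above RH/+ vehicle hearts by a log2 fold change of 0.67 ± 0.11 (SE), a ratio of means of 1.62, with a limma adjusted p of 0.000398. Treated RH/RQ hearts were above RH/+ vehicle hearts by 0.99 ± 0.11, a ratio of means of 2.03, with a limma adjusted p of 8.6e-06. On the mean, treated hearts lay further from RH/+ hearts than vehicle RH/RQ hearts did. The difference of treated hearts from RH/RQ vehicle hearts was 0.32, with a 95% interval of 0.09 to 0.54 and a limma adjusted p of 0.187, so these neighbours in the order were not separated by the test although their libraries did not overlap. Leaving out any 1 library kept both calls, with limma adjusted p up to 0.0234 for the RH/RQ vehicle contrast and up to 0.000323 for the treated contrast. The authors' deposited table gives 0.65 for RH/RQ vehicle over RH/+, 0.91 for treated over RH/+ and 0.27 for treated over RH/RQ vehicle, with adjusted p of 4.89e-05, 1.14e-08 and 0.575. Cdkn1a shares 273 exonic bases with AC167363.2 on the other strand, and without a stated strand setting reads of the pair could not be separated. AC167363.2 is not among the genes measured.

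**Figure D1:**
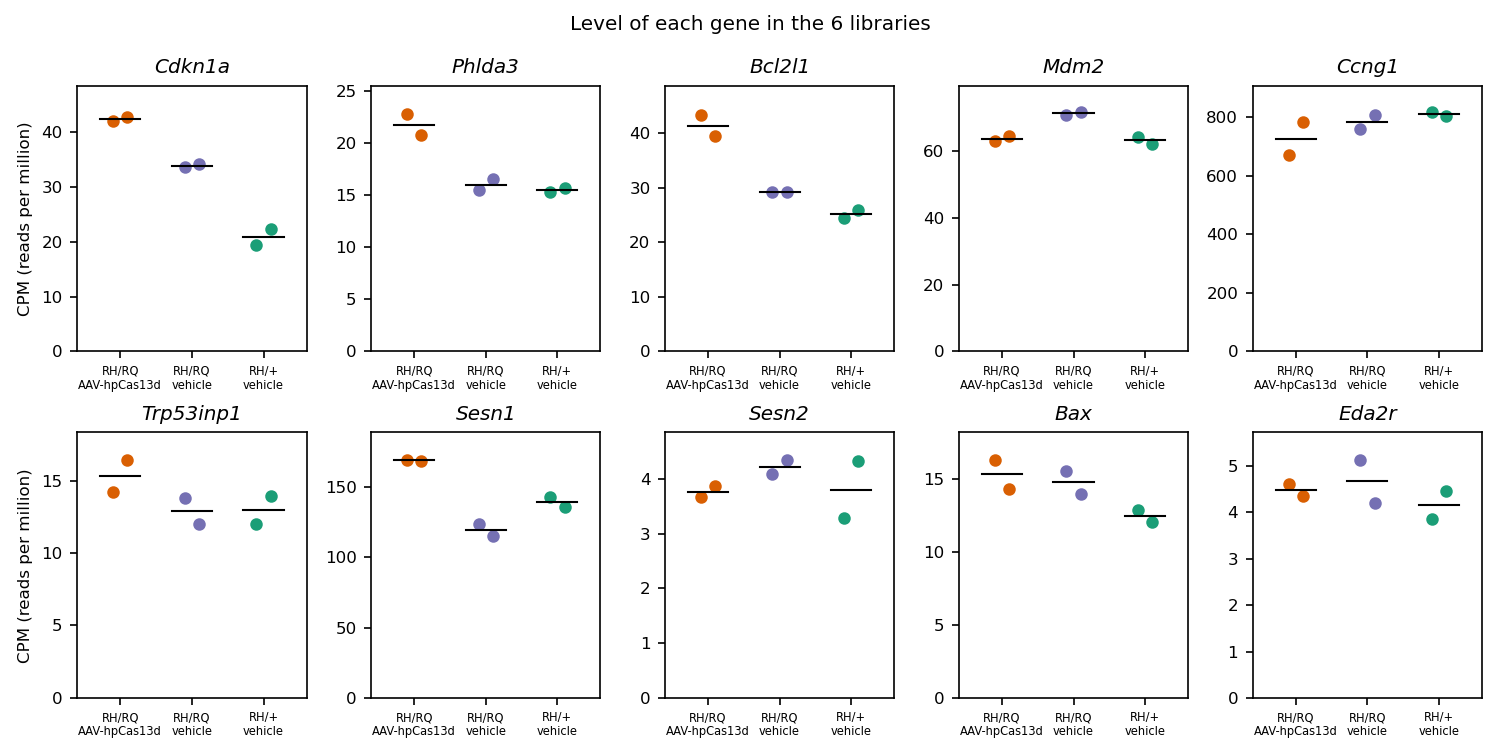
CPM of the 10 genes in each library (points) with the group mean (line), from an axis that starts at 0, for treated RH/RQ, RH/RQ vehicle and RH/+ vehicle hearts from left to right. Cdkn1a steps down across the groups, Phlda3, Bcl2l1 and Sesn1 are highest in the treated libraries, and the other 6 genes lie close together.

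Bcl2l1 and Bax encode opposing members of the BCL2 family, which controls the release of cytochrome c from mitochondria. Bcl2l1 (chromosome 2, 152780668 to 152831728, minus strand), mainly known for its anti-death product BCL-xL, was at 43.3 and 39.6 CPM in treated hearts, at 29.2 and 29.3 CPM in vehicle RH/RQ hearts, and at 24.5 and 26.0 CPM in RH/+ vehicle hearts. The treated libraries were the highest and did not overlap either other group. The gene rose in treated hearts over RH/+ hearts by 0.69 ± 0.11 on the log2 scale (limma adjusted p = 0.000428), a call kept when any 1 library was left out (adjusted p up to 0.0145). Over RH/RQ vehicle hearts it rose by 0.49 ± 0.11 (limma adjusted p = 0.0152), a call lost without vehicle RH/RQ replicate 1 (adjusted p = 0.0793), vehicle RH/RQ replicate 2 (0.135) or treated replicate 1 (0.11). RH/RQ vehicle over RH/+ vehicle was 0.21 ± 0.11, with a limma adjusted p of 0.341. The gene-level reads do not separate BCL-xL from the shorter BCL-xS product. Bcl2l1 stands among the p53 targets by the grouping of the list only, and its regulation by p53 was not tested.

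Bax (chromosome 7, 45461697 to 45466898, minus strand), which forms pores in the outer mitochondrial membrane, was at 16.3 and 14.4 CPM in treated hearts, at 15.6 and 14.0 CPM in vehicle RH/RQ hearts, and at 12.9 and 12.1 CPM in RH/+ vehicle hearts. Both RH/RQ groups lay above RH/+ hearts and overlapped each other, and no contrast was called. Treated over RH/+ was 0.27, with a 95% interval of -0.01 to 0.55 and a limma adjusted p of 0.342. Per kb of exon, the ratio of Bax to Bcl2l1 was 1.10 and 1.06 in treated hearts, 1.55 and 1.39 in RH/RQ vehicle hearts, and 1.53 and 1.36 in RH/+ vehicle hearts. The treated libraries had the lowest ratios, while the vehicle groups overlapped. This ratio was formed after the values were seen and has no test. Bax shares 192 exonic bases with Gm45808 on the same strand. Gm45808 is not among the genes measured. If the annotation used held it, some Bax reads may have been set aside in counting.

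Phlda3 (chromosome 1, 135766119 to 135769136, plus strand), which blocks the membrane binding of the kinase AKT, was at 22.7 and 20.7 CPM in treated hearts, at 15.4 and 16.5 CPM in vehicle RH/RQ hearts, and at 15.3 and 15.6 CPM in RH/+ vehicle hearts. The treated libraries were above all others, and the vehicle groups overlapped. Treated over RH/+ was 0.46 ± 0.13 with a limma adjusted p of 0.0444, just under the threshold. That call was lost without RH/+ vehicle replicate 1 (0.341), RH/+ vehicle replicate 2 (0.185) or treated replicate 1 (0.21), with edgeR (adjusted p = 0.115) and DESeq2 (0.144), and with TMM (0.138) or RLE (0.143) factors or CPM over nuclear genes (0.0507). Treated over RH/RQ vehicle was 0.42 ± 0.13 with a limma adjusted p of 0.0953.

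Sesn1 and Sesn2 encode sestrins, which restrain the growth kinase complex mTORC1 when leucine is scarce. Sesn1 (chromosome 10, 41809935 to 41908424, plus strand) was at 168.8 and 168.8 CPM in treated hearts, at 123.7 and 114.8 CPM in vehicle RH/RQ hearts, and at 142.8 and 135.9 CPM in RH/+ vehicle hearts. The RH/RQ vehicle libraries were the lowest and the treated ones the highest, with no overlap between groups, an order unlike that of Cdkn1a. Treated over RH/RQ vehicle was 0.50 ± 0.09 with a limma adjusted p of 0.00245, a call lost without vehicle RH/RQ replicate 2 (0.088). Treated over RH/+ was 0.28 ± 0.09 (limma adjusted p = 0.116). RH/RQ vehicle over RH/+ was -0.22 ± 0.09 (limma adjusted p = 0.184). DESeq2 on the 6 libraries gave an adjusted p of 0.0408. The authors' deposited table gives -0.28 with an adjusted p of 0.0269. Sesn2 (chromosome 4, 132492032 to 132510501, minus strand) was low, at 3.67 and 3.88 CPM in treated hearts, at 4.10 and 4.36 CPM in vehicle RH/RQ hearts, and at 3.28 and 4.33 CPM in RH/+ vehicle hearts. RH/+ hearts spanned nearly the range of the other groups, and no contrast was called.

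Neither of the feedback genes was called in any contrast. Mdm2 (chromosome 10, 117688875 to 117710758, minus strand) was at 62.9 and 64.3 CPM in treated hearts, at 70.8 and 71.6 CPM in vehicle RH/RQ hearts, and at 64.2 and 62.0 CPM in RH/+ vehicle hearts. RH/RQ vehicle hearts were above both other groups, which overlapped, and no contrast was called. The log2 fold change of RH/RQ vehicle over RH/+ was 0.17 (limma adjusted p = 0.369). Treated over RH/+ was 0.01, with a 95% interval of -0.18 to 0.21. Ccng1 (chromosome 11, 40748552 to 40755311, minus strand), which encodes cyclin G1 and recruits a phosphatase to MDM2, was at 671 and 782 CPM in treated hearts, at 760 and 809 CPM in vehicle RH/RQ hearts, and at 817 and 805 CPM in RH/+ vehicle hearts. The treated libraries were below both RH/+ libraries but overlapped RH/RQ vehicle hearts, and treated over RH/+ was -0.16 with a 95% interval of -0.38 to 0.06 (limma adjusted p = 0.498).

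Trp53inp1 (chromosome 4, 11156431 to 11174379, plus strand), a nuclear stress protein that takes part in cell death and autophagy, was at 14.2 and 16.4 CPM in treated hearts, at 13.8 and 12.0 CPM in vehicle RH/RQ hearts, and at 12.0 and 14.0 CPM in RH/+ vehicle hearts. Eda2r (chromosome X, 97333840 to 97377216, minus strand), a receptor of the TNF receptor family for ectodysplasin A2, was at 4.60 and 4.35 CPM in treated hearts, at 5.14 and 4.20 CPM in vehicle RH/RQ hearts, and at 3.86 and 4.46 CPM in RH/+ vehicle hearts. The treated libraries were the highest for Trp53inp1 by a small margin and lay among the others for Eda2r, and no contrast was called for either gene (limma adjusted p of at least 0.487). The 95% interval for treated over RH/+ hearts ran from -0.07 to 0.52 for Trp53inp1 and from -0.27 to 0.45 for Eda2r. A modest change in these genes was not detectable with 2 libraries a group.

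Over the 10 genes, limma called 1 higher in RH/RQ vehicle than in RH/+ hearts (Cdkn1a), where 3.48% of all genes tested were called higher. In treated over RH/RQ vehicle hearts 2 were called higher (Bcl2l1 and Sesn1), against 1.22% of all genes, and in treated over RH/+ hearts 3 (Cdkn1a, Phlda3 and Bcl2l1), against 2.33%. None was called lower in any of the 3 contrasts, where 1.51%, 0.827% and 0.53% of all genes were. At an unadjusted p under 0.05, limma put 1, 4 and 4 of the 10 higher and 1, 0 and 0 lower. With edgeR, 1, 2 and 2 were called higher and 0 lower in each contrast. With DESeq2, 1, 2 and 2 were called higher and 1, 0 and 0 lower. Since the genes were chosen with these contrasts known, nothing is read from the counts. The median log2 fold change of the 10 genes was 0.13 for RH/RQ vehicle over RH/+, 0.14 for treated over RH/RQ vehicle and 0.25 for treated over RH/+, beside 0.04, 0.04 and 0.08 over all genes tested. The 3 contrasts share libraries, so they are not separate observations of a gene.

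**Figure D2:**
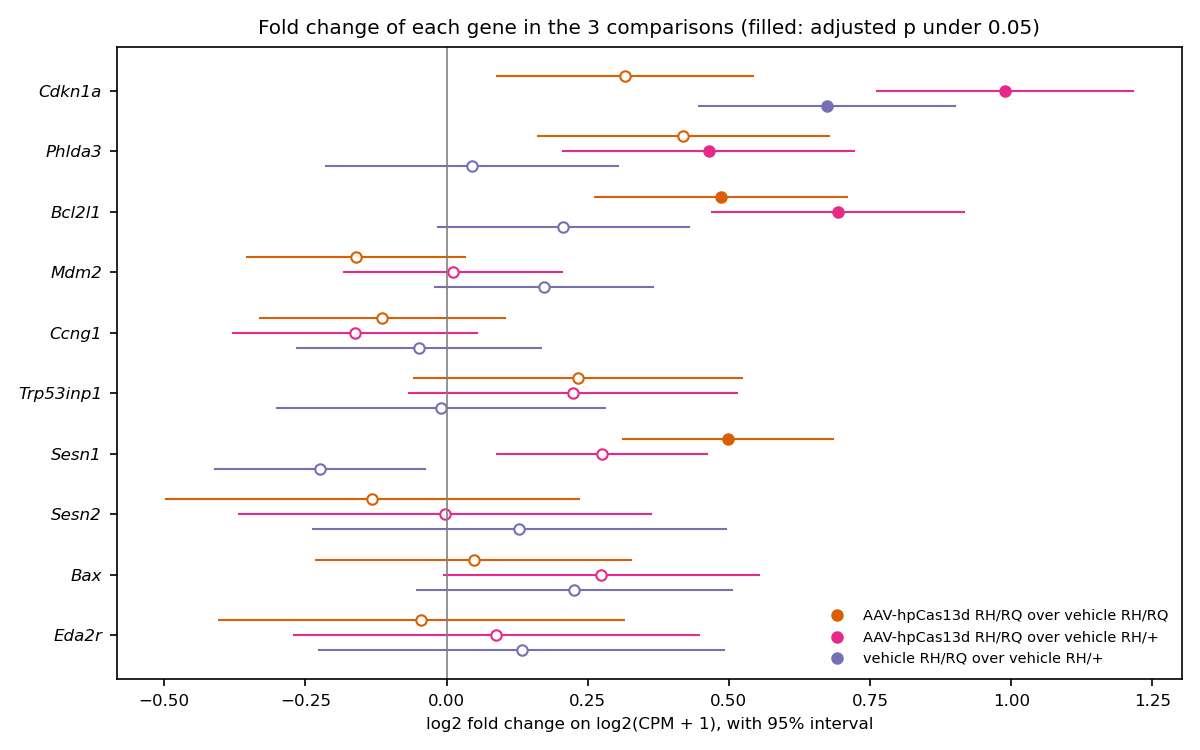
Log2 fold change of the 10 genes on log2(CPM + 1) with its 95% interval, for treated RH/RQ over RH/RQ vehicle, treated RH/RQ over RH/+ vehicle and RH/RQ vehicle over RH/+ vehicle hearts; filled points have a limma adjusted p under 0.05. The 6 filled points belong to Cdkn1a, Phlda3, Bcl2l1 and Sesn1, and all lie to the right of 0.

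Per kb of exon the genes spanned a wide range of levels. Ccng1 was highest, at 207, 223 and 231 CPM per kb in treated, RH/RQ vehicle and RH/+ vehicle hearts, followed by Sesn1 at 42.4, 29.9 and 35.0 CPM per kb. Mdm2, Phlda3, Cdkn1a, Bax and Bcl2l1 lay close together, with means over the 6 libraries of 13.0, 11.4, 9.12, 9.03 and 6.98 CPM per kb. Cdkn1a was at 11.9 CPM per kb in treated hearts, 9.53 in RH/RQ vehicle hearts and 5.89 in RH/+ vehicle hearts, so its place among these 5 genes differed with the group. Trp53inp1, Sesn2 and Eda2r were lowest, with means of 2.12, 1.13 and 0.753 CPM per kb. The lowest counts behind any value were 125 reads for Sesn2 and 147 reads for Eda2r, against 741 to 1710 reads for Cdkn1a.

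**Figure D3:**
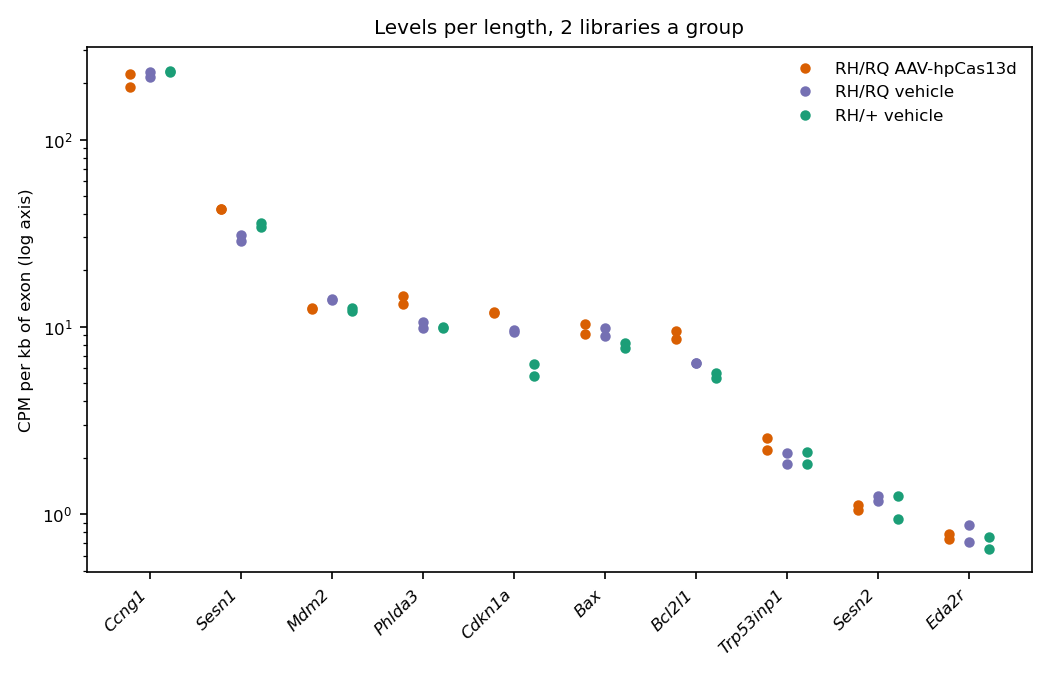
CPM per kb of exon on a log axis for each library of the 3 groups, genes ordered by their mean. Ccng1 lies near 200 and Eda2r below 1, and the groups separate visibly for Cdkn1a, Bcl2l1 and Sesn1.

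Among 59 further genes known as p53 targets, 58 were tested. In RH/RQ vehicle over RH/+ hearts 4 rose (6.9%) and 0 fell, beside 3.48% and 1.51% of all genes. Ier5, an immediate early gene, was at 60.1 and 55.3 CPM in RH/RQ vehicle hearts against 30.3 and 34.6 CPM in RH/+ vehicle hearts (log2 fold change 0.81, limma adjusted p = 2.54e-05). Btg2, an antiproliferative gene, was at 51.8 and 44.4 CPM in RH/RQ vehicle hearts against 30.1 and 33.0 CPM in RH/+ vehicle hearts (0.59, limma adjusted p = 0.00253). The others were Sertad1 (0.71, limma adjusted p = 0.0172) and Trp53i11 (0.43, limma adjusted p = 0.0354). At an unadjusted p under 0.05, limma put 8 higher and 0 lower, and edgeR and DESeq2 each called 4 higher and 0 lower. The shares above do not apply to these counts. The Btg2 call was lost without RH/+ vehicle replicate 1 (adjusted p = 0.0556) or vehicle RH/RQ replicate 1 (0.0686). Those of Sertad1 and Trp53i11 were lost without any one of the 4 libraries compared (adjusted p of 0.0794 to 0.103 and of 0.0522 to 0.307). These groups also differ in the sex-linked pattern and in fibroblast and macrophage markers. Summed macrophage markers (Csf1r, Adgre1, Cd68, C1qa) were at 134 to 136 CPM in RH/RQ vehicle hearts against 102 to 103 CPM in RH/+ vehicle hearts. Their part was not tested.

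Ddit4, of the same list, is an inhibitor of mTORC1 that also responds to glucocorticoids and low oxygen. It was at 165 and 124 CPM in treated hearts. Vehicle RH/RQ hearts had 58.6 and 54.8 CPM, and RH/+ vehicle hearts 60.1 and 68.6 CPM. The treated libraries were well above every other, and the vehicle groups lay close together. It rose by 1.32 ± 0.11 over RH/RQ vehicle hearts and by 1.14 ± 0.11 over RH/+ hearts (limma adjusted p of 9e-08 and 1.37e-06). Ier5 was at 43.8 and 39.7 CPM in treated hearts, and was lower than in RH/RQ vehicle hearts by a log2 fold change of -0.46 (limma adjusted p = 0.0213). The call was lost without vehicle RH/RQ replicate 1 (0.176), vehicle RH/RQ replicate 2 (0.0816) or treated replicate 2 (0.0752). Gdf15, a secreted stress cytokine, was at 3.53 and 2.74 CPM in treated hearts against 1.42 and 1.35 CPM in RH/+ vehicle hearts (log2 fold change 0.79, limma adjusted p = 0.0172). That call was lost with DESeq2 (0.0556) and without RH/+ vehicle replicate 1 (0.114), RH/+ vehicle replicate 2 (0.0946) or treated replicate 1 (0.158). So treated over RH/RQ vehicle hearts gave 1 higher and 1 lower of 58, beside 1.22% and 0.827% of all genes. Treated over RH/+ hearts gave 2 higher and 0 lower, beside 2.33% and 0.53% of all genes. There limma put 14 higher and 0 lower at an unadjusted p under 0.05, a threshold to which these shares do not apply. With edgeR the counts were 2 and 0, and with DESeq2 1 and 0. Without treated replicate 2 the last contrast gave 6 higher, with Btg2, Ier5, Sertad1 and Trp53i11 past the threshold as well. The list's median log2 fold changes were 0.04 and 0.14 in these contrasts and 0.08 in RH/RQ vehicle over RH/+ hearts, beside 0.04, 0.08 and 0.04 over all genes.

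Zmat3, Bbc3, Pmaip1, Aen and Fas, of the same list, were called in no contrast by limma and are named after their values were seen. Zmat3, an RNA-binding protein, was at 17.9 and 20.7 CPM in treated hearts, 18.2 and 20.9 CPM in RH/RQ vehicle hearts, and 16.0 and 17.1 CPM in RH/+ vehicle hearts. The death gene Bbc3 was at 4.74 and 2.66, 4.06 and 3.76, and 3.23 and 4.86 CPM in the same order, and Pmaip1 stayed under 0.5 CPM in every library. Aen, a nuclease, had a log2 fold change of 0.27 in treated over RH/+ hearts (limma adjusted p = 0.213), and Fas, a death receptor, one of 0.32 (0.294).

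**Figure D4:**
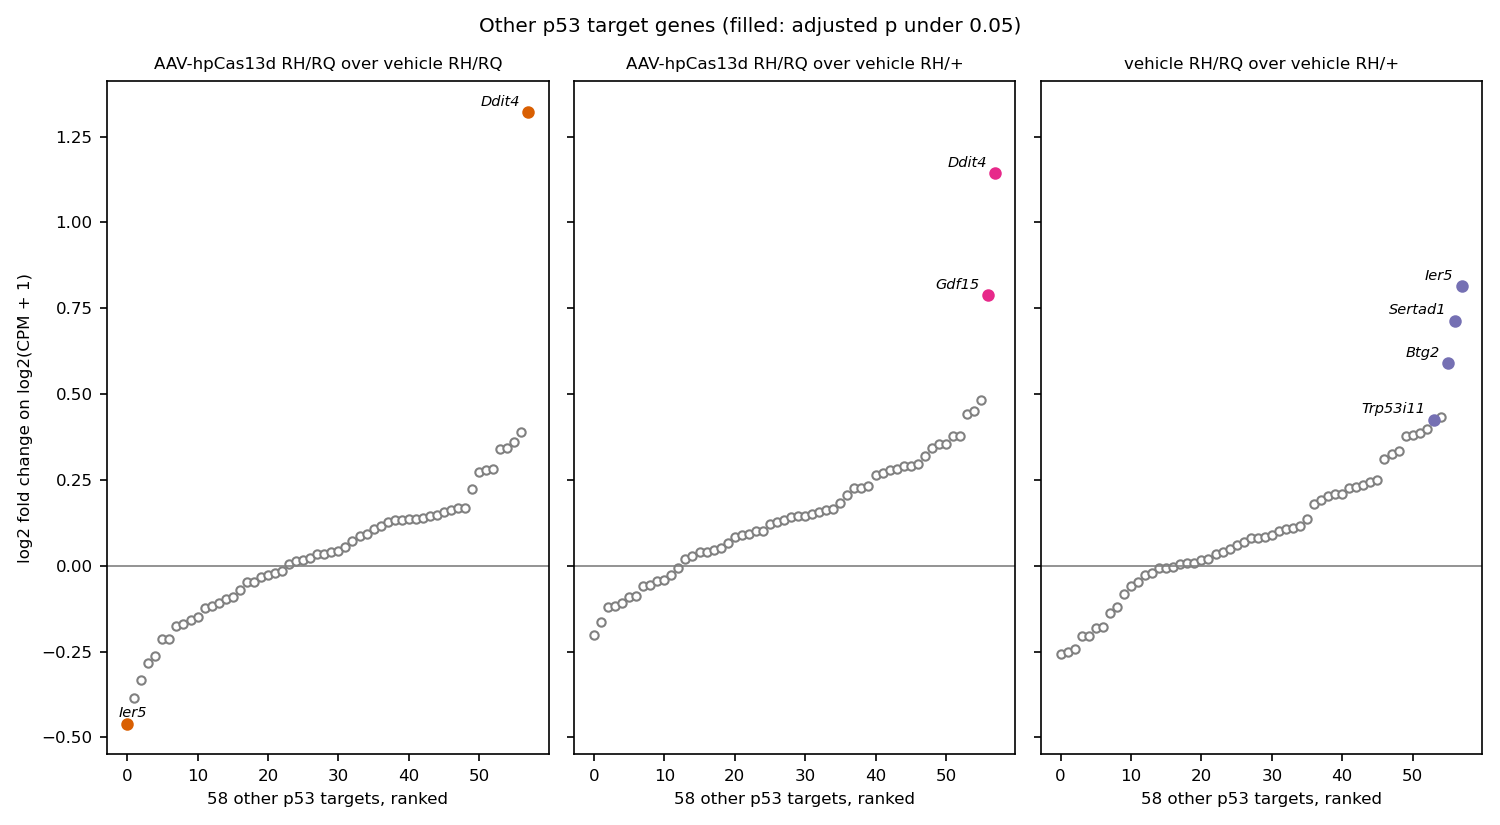
Log2 fold change of the 58 other p53 targets, ranked within each contrast, for treated RH/RQ over RH/RQ vehicle (left), treated RH/RQ over RH/+ vehicle (middle) and RH/RQ vehicle over RH/+ vehicle hearts (right); filled and named points have a limma adjusted p under 0.05. Most points lie within 0.5 of 0, and Ddit4 stands highest in both treated contrasts.

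No gene of p53 itself and its regulators was called. Trp53, which encodes p53, was at 23.0 and 21.6 CPM in treated hearts, at 25.6 and 19.6 CPM in vehicle RH/RQ hearts, and at 19.3 and 18.3 CPM in RH/+ vehicle hearts, and treated over RH/+ was 0.23 (limma adjusted p = 0.421). Of p53 and its regulators, limma called 0 of 20 in each contrast, as did edgeR and DESeq2. Of all genes, limma called 4.99% in RH/RQ vehicle over RH/+, 2.05% in treated over RH/RQ vehicle and 2.86% in treated over RH/+ hearts. At an unadjusted p under 0.05, 2 were higher in RH/RQ vehicle over RH/+ hearts, 3 lower in treated over RH/RQ vehicle hearts and 0 either way in treated over RH/+ hearts. The smallest p values were those of Hipk2, a kinase of p53 (0.43 in RH/RQ vehicle over RH/+, limma adjusted p = 0.135), Chek2, a checkpoint kinase (-0.41 in treated over RH/RQ vehicle, 0.301), and Trp63, a relative of p53 (0.46 in RH/RQ vehicle over RH/+, 0.216). Hipk2 spread from 73.9 to 118 CPM within RH/RQ vehicle hearts alone. p53 is controlled largely through protein stability, which RNA levels do not measure.

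None of the other inhibitors and drivers of the G1 phase was called. Of 19 genes, limma, edgeR and DESeq2 called 0 in each contrast, and 0 passed an unadjusted p under 0.05. The shares of all genes called by limma were 4.99% in RH/RQ vehicle over RH/+, 2.05% in treated over RH/RQ vehicle and 2.86% in treated over RH/+ hearts. Cdkn1b, which encodes the sister inhibitor p27, was at 52.4 and 52.8 CPM in treated hearts, 57.7 and 45.4 CPM in RH/RQ vehicle hearts, and 51.0 and 49.7 CPM in RH/+ vehicle hearts, and was named after its values were seen. The smallest p values of the list were those of the G1 cyclin gene Ccne1 (log2 fold change 0.35, limma adjusted p = 0.334) and the kinase gene Cdk4 (0.23, 0.367) in treated over RH/+ hearts, and of E2f4 (0.21, 0.332) in RH/RQ vehicle over RH/+ hearts. Among 20 proliferation genes that p21 helps to repress, 3 rose in RH/RQ vehicle over RH/+ hearts and 0 fell, beside 3.48% and 1.51% of all genes. At an unadjusted p under 0.05 limma put 8 higher and 0 lower, and edgeR and DESeq2 each called 2 higher and 0 lower. The shares given do not apply to these counts. Mki67, a marker of cycling cells, was at 4.88 and 4.92 CPM in RH/RQ vehicle hearts against 1.26 and 2.10 CPM in RH/+ vehicle hearts (log2 fold change 1.16, limma adjusted p = 0.000354). Top2a, a topoisomerase, was at 3.82 and 2.86 CPM against 1.02 and 1.15 CPM (1.05, adjusted p = 0.00114). Ccnb2, the third, was between 0.225 and 1.26 CPM, and its call (0.67, limma adjusted p = 0.0334) was lost with edgeR (0.0838) and DESeq2 (0.108). It was also lost without RH/+ vehicle replicate 2 (0.291), vehicle RH/RQ replicate 1 (0.0902) or vehicle RH/RQ replicate 2 (0.184). In treated over RH/RQ vehicle hearts 1 was called lower and 0 higher, beside 0.827% and 1.22% of all genes. The 1 gene was Kif23 (-0.69, limma adjusted p = 0.0472), which neither edgeR (0.0586) nor DESeq2 (0.0738) called. The limma call was lost without vehicle RH/RQ replicate 1 (0.184), vehicle RH/RQ replicate 2 (0.212) or treated replicate 1 (0.38). Mki67 was at 3.34 and 3.03 CPM in treated hearts, between the other groups. Its contrast with RH/RQ vehicle hearts was not called (-0.50, limma adjusted p = 0.232). That with RH/+ hearts missed the threshold (0.66, limma adjusted p = 0.0594) and passed it with a pseudocount of 0.1 (0.047), a filter at a mean of 1 CPM (0.0488) or a replicate block (0.0356), and without RH/+ vehicle replicate 2 (0.0321).

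Of the rest of the BCL2 family and its partners, 20 genes were tested. Bcl2l11, which encodes the death-promoting protein BIM, was at 15.7 and 17.2 CPM in treated hearts, 11.5 and 9.00 CPM in RH/RQ vehicle hearts, and 12.7 and 14.8 CPM in RH/+ vehicle hearts. It rose in treated over RH/RQ vehicle hearts by 0.64 (limma adjusted p = 0.0183), a call lost without vehicle RH/RQ replicate 2 (0.372) or treated replicate 2 (0.0717). In that contrast genes for an anti-death and for a pro-death protein, Bcl2l1 and Bcl2l11, were both called higher. Bnip3, a mitophagy receptor, was called higher in RH/RQ vehicle over RH/+ hearts (0.42, limma adjusted p = 0.0129), a call lost without any one of the 4 libraries compared (adjusted p of 0.0532 to 0.16). It was at 77.3 and 90.9 CPM in treated hearts, 104 and 109 CPM in RH/RQ vehicle hearts, and 82.5 and 76.6 CPM in RH/+ vehicle hearts. Treated over RH/RQ vehicle was -0.34 (limma adjusted p = 0.0857). That contrast was called lower with DESeq2 (0.0375), TMM (0.045) or RLE (0.0481) factors, CPM over nuclear genes (0.0305) or a replicate block (0.0346), and without treated replicate 2 (0.0148). Over the list, limma called 1 higher in RH/RQ vehicle over RH/+, 1 higher in treated over RH/RQ vehicle and 0 in treated over RH/+ hearts, and 0 lower in each. Of all genes, 3.48%, 1.22% and 2.33% were called higher in these contrasts, and 1.51%, 0.827% and 0.53% lower. At an unadjusted p under 0.05 limma put 2, 4 and 3 higher and 2, 1 and 1 lower. The counts called higher with edgeR and with DESeq2 were 1, 1 and 0, as with limma. The counts called lower were 0 in each contrast with edgeR and 1 in each with DESeq2. The anti-death genes Bcl2 and Mcl1 had log2 fold changes of 0.45 and 0.21 in treated over RH/+ hearts, with limma adjusted p of 0.0782 and 0.253. Among 8 tested relatives of Ccng1, Sesn1, Phlda3 and Eda2r, 1 was called. It was higher in treated over RH/+ hearts, beside 2.33% of all genes called higher there. Edar, another ectodysplasin receptor, was at 0.993 and 0.659 CPM in treated hearts against 0.105 and 0.175 CPM in RH/+ vehicle hearts (log2 fold change 0.67, limma adjusted p = 0.0238). The call was lost without RH/+ vehicle replicate 1 (0.231), RH/+ vehicle replicate 2 (0.074) or treated replicate 1 (0.204).

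Of the targets of glucocorticoids and of FoxO factors, 17 were tested. In treated over RH/RQ vehicle hearts 8 rose and 1 fell, beside 1.22% and 0.827% of all genes, and in treated over RH/+ hearts 7 rose and 0 fell, beside 2.33% and 0.53%. In RH/RQ vehicle over RH/+ hearts 2 rose, Pdk4 and Txnip, and 3 fell, Klf15, Zbtb16 and Pik3ip1, beside 3.48% and 1.51%. In the treated contrasts, leaving out 1 library gave 5 to 8 and 5 to 10 higher, edgeR 6 and 5, and DESeq2 8 and 5. In treated over RH/+ hearts, edgeR, DESeq2 and limma at an unadjusted p under 0.05 each put 1 gene lower, Zbtb16. Per1, a clock gene, was at 59.1 and 47.6 CPM in treated hearts, 19.8 and 19.6 CPM in RH/RQ vehicle hearts, and 17.6 and 19.5 CPM in RH/+ vehicle hearts. Tsc22d3, the glucocorticoid-induced leucine zipper, was at 171 and 157, 82.5 and 71.7, and 81.2 and 84.8 CPM in the same order. Both were far higher in the treated libraries than in any other (log2 fold changes over RH/RQ vehicle of 1.38 and 1.08, limma adjusted p of 9.66e-08 and 1.53e-07). Cebpd, a transcription factor of the C/EBP family, was at 32.3 and 21.9 CPM in treated hearts, 12.7 and 11.1 CPM in RH/RQ vehicle hearts, and 10.4 and 11.3 CPM in RH/+ vehicle hearts (1.10 over RH/RQ vehicle and 1.22 over RH/+, limma adjusted p of 0.000122 and 3.34e-05). Its relative Cebpb was called in both contrasts as well (0.76 and 0.80, limma adjusted p of 0.00362 and 0.00184). Those calls were lost without treated replicate 1 (0.105 and 0.0633), and that over RH/RQ vehicle hearts also without vehicle RH/RQ replicate 2 (0.0813). Klf15, a metabolic transcription factor, was at 53.5 and 41.5 CPM in treated hearts, 23.2 and 24.7 CPM in RH/RQ vehicle hearts, and 40.5 and 42.3 CPM in RH/+ vehicle hearts. It was higher in treated than in RH/RQ vehicle hearts (0.95, limma adjusted p = 2.45e-05) and lower in RH/RQ vehicle than in RH/+ hearts (-0.76, limma adjusted p = 0.000186). Pik3ip1, an inhibitor of PI3K, was higher in treated than in RH/RQ vehicle hearts (0.64, limma adjusted p = 0.000719). The calls of Klf9 (0.38 over RH/RQ vehicle and 0.37 over RH/+, limma adjusted p of 0.0239 and 0.0217) were lost with edgeR (0.0988 and 0.195), that of Klf9 over RH/+ also with DESeq2 (0.102). The call of the ubiquitin ligase gene Fbxo32 over RH/RQ vehicle (0.45, limma adjusted p = 0.015) was lost with edgeR (0.0692). The call of the kinase gene Sgk1 over RH/+ (0.46, limma adjusted p = 0.0194) was lost with edgeR (0.0776) and DESeq2 (0.0554). These calls of Klf9, Fbxo32 and Sgk1 were also lost with TMM or RLE factors (limma adjusted p of 0.0584 to 0.158), and when single libraries were left out. For Klf9 over RH/RQ vehicle hearts these were vehicle RH/RQ replicate 1 (0.123), vehicle RH/RQ replicate 2 (0.226) or treated replicate 1 (0.0909), and over RH/+ hearts RH/+ vehicle replicate 1 (0.194), RH/+ vehicle replicate 2 (0.182) or treated replicate 1 (0.0842). For Fbxo32 they were vehicle RH/RQ replicate 1 (0.158), vehicle RH/RQ replicate 2 (0.0514) or treated replicate 2 (0.0894), and for Sgk1 RH/+ vehicle replicate 1 (0.073), RH/+ vehicle replicate 2 (0.152) or treated replicate 1 (0.203). Per1 also follows the time of day, and the labels give no time of collection. The part of the time of day in Per1 and in the other genes of this list was not tested. Fkbp5, another glucocorticoid target, was not called in either treated contrast (0.24 and 0.38, limma adjusted p of 0.414 and 0.0909). Pdk4, which was called lower in treated than in RH/RQ vehicle hearts (-1.04), was at 213 and 243 CPM in treated hearts, 461 and 478 CPM in RH/RQ vehicle hearts, and 146 and 149 CPM in RH/+ vehicle hearts. Its log2 fold change was 0.62 in treated over RH/+ hearts (limma adjusted p = 0.000272) and 1.66 in RH/RQ vehicle over RH/+ hearts (2.64e-11). In the last contrast the calls of Txnip, Zbtb16 and Pik3ip1 were lost when a library was left out (limma adjusted p up to 0.161, 0.324 and 0.291). Of 11 tested targets of the stress factor ATF4, limma, edgeR and DESeq2 called 0 in each contrast. Beside this, limma called 4.99% of all genes in RH/RQ vehicle over RH/+, 2.05% in treated over RH/RQ vehicle and 2.86% in treated over RH/+ hearts. At an unadjusted p under 0.05, 2 were higher and 1 lower in RH/RQ vehicle over RH/+ hearts, 1 and 1 in treated over RH/RQ vehicle hearts, and 0 either way in treated over RH/+ hearts. The smallest p values were those of Chac1, a glutathione-degrading enzyme (0.52 in treated over RH/RQ vehicle, limma adjusted p = 0.181), and of Atf4 itself (0.29, 0.173) and the stress factor gene Ddit3 (0.31, 0.21) in RH/RQ vehicle over RH/+ hearts.

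Cdkn1a is also used as a marker of senescence. Among senescence-associated genes, Igfbp3 and Igfbp7, which bind insulin-like growth factors, were called higher in treated over RH/+ hearts. The Igfbp3 call was lost without RH/+ vehicle replicate 1 (limma adjusted p = 0.197) or treated replicate 1 (0.069). Ccl2, a chemokine, was lower, at 1.30 and 1.95 CPM in treated hearts against 3.81 and 3.56 CPM in RH/+ vehicle hearts (log2 fold change -0.85, limma adjusted p = 0.0134). That call was lost without RH/+ vehicle replicate 1 (0.136) or treated replicate 1 (0.155). Over RH/RQ vehicle hearts Igfbp3 was higher (0.81, limma adjusted p = 0.00159) and Ccl2 lower (-0.96, limma adjusted p = 0.00545), the call of Ccl2 being lost without vehicle RH/RQ replicate 1 (0.0952) or treated replicate 1 (0.0947). Tnfrsf12a, a receptor of the TNF receptor family, was at 84.3 and 62.3 CPM in treated hearts, 101 and 103 CPM in RH/RQ vehicle hearts, and 56.8 and 58.3 CPM in RH/+ vehicle hearts. It was higher in RH/RQ vehicle than in RH/+ hearts (0.81, limma adjusted p = 5.44e-05) and lower in treated than in RH/RQ vehicle hearts (-0.48, limma adjusted p = 0.0219). The second call was lost without vehicle RH/RQ replicate 1 (0.0754), vehicle RH/RQ replicate 2 (0.177) or treated replicate 2 (0.16). Igfbp5 was higher in RH/RQ vehicle than in RH/+ hearts (0.53, limma adjusted p = 0.0102), a call lost with DESeq2 (0.343) and without RH/+ vehicle replicate 2 (0.0614) or vehicle RH/RQ replicate 2 (0.298). The Igfbp7 call (limma adjusted p = 0.0444) was lost with edgeR (0.163) and DESeq2 (0.143). It was also lost without RH/+ vehicle replicate 1 (0.361), RH/+ vehicle replicate 2 (0.074) or treated replicate 1 (0.42). Cdkn2a and Cdkn2b, the cell cycle inhibitors most tied to senescence, were at or below 1.00 CPM in every library and were not called. These genes are also expressed in fibroblasts. Summed fibroblast markers were higher in both RH/RQ groups than in RH/+ hearts and overlapped between treated and RH/RQ vehicle hearts. Between the last groups, limma called only Col1a1 of these markers, lower in treated hearts. The part of such shifts was not tested.

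Over the 6 libraries, the genes most like Cdkn1a by Pearson correlation of log2(CPM + 1), among 13487 tested genes whose mean reached 1 CPM, were Qsox1 (r = 0.998), Blmh (0.995), Cyp1b1 (0.993), Clcf1 (0.993) and Mybpc2 (0.993). At the lower bound of r above 0.9, over 6 libraries in 3 groups, there were 504 genes, 3.74% of the candidates. The 5 genes were picked by this correlation, so a like order of groups follows from the choice. Mybpc2, the fast skeletal form of myosin binding protein C, was at 57.3 and 58.8 CPM in treated hearts, 42.0 and 40.4 CPM in RH/RQ vehicle hearts, and 9.95 and 13.2 CPM in RH/+ vehicle hearts, the same order of groups as Cdkn1a with a wider distance to RH/+ hearts. Cyp1b1, a cytochrome P450 enzyme, was at 17.8 and 16.2, 12.5 and 13.2, and 5.20 and 7.19 CPM in the same order. Of the other genes followed here, Bcl2l1 was the most like Cdkn1a (r = 0.897, rank 530), then Bax (0.808) and Phlda3 (0.779). Mdm2 (0.237) and Sesn2 (0.214) were not alike and Ccng1 ran opposite (r = -0.62). These values describe the 6 libraries and have no test.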

How the data were processed

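Poly(A) RNA of 6 mouse hearts was captured on poly-T beads and sequenced, per the labels' protocols. Per the submitters' processing notes, the mm10 build was used with HISAT2, HTSeq and DESeq2; versions, roles, strand setting and annotation are not given in the sources used here. The authors deposited 3 full tables of 4 libraries each with CPM per gene, and, per the file headers, log2 fold changes with standard errors, a test statistic as a score, a mean signal per gene and p-values. A library found in 2 tables had the same values (largest difference 0). All CPM values were whole multiples of 1 read (100%, tolerance 0.001), so reads were recovered. Sample columns left out numbered 0.

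The test was limma 3.58.1 (R 4.3.3) with a trend on log2(CPM + 1), 6 libraries in 1 fit of 3 group means; such a fold change understates the change of low genes. A filter on low counts (filterByExpr, minimum 10 reads) left 16804 of 29385 genes. Alternatives were edgeR 4.0.16 and DESeq2 1.42.0 on the recovered reads, TMM and RLE factors, CPM over nuclear genes, a pseudocount of 0.1, other filters, the 4 libraries of a contrast alone, a replicate block and leaving out each library. The fit was tested on simulated data. Coordinates and exon lengths are GENCODE M21 on GRCm38 (mm10); promoters are RefSeq, GRCm38.p6. The 10 genes, the lists and the alternatives were chosen with earlier results of these data known. Named genes were the 10, of each list at most 8 called genes a contrast or, where no contrast called any, the 3 with the smallest p, and the 5 most like Cdkn1a; genes named outside this rule were chosen after their values were seen. A gene of these lists is not reported here.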

Additional observations from a re-analysis of the deposited data

How the results depend on the processing

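Of 480 values of the 10 genes under an alternative, 461 kept their side of the threshold; 18 calls were lost, 1 was gained and 0 changed direction while called, and 26 values without a call changed sign. Without a filter on low values, limma called 57, 15 and 7 genes in RH/RQ vehicle over RH/+, treated over RH/RQ vehicle and treated over RH/+ hearts, against 838, 344 and 480 with it, and 0 of the 10 genes in each; Cdkn1a then had adjusted p of 0.0622 and 0.0728 in the contrasts in which it was called. That setting also refits the variance trend over all 29385 genes, and the cause was not tested. DESeq2 called 2 of the 10 in RH/RQ vehicle over RH/+ hearts (Cdkn1a and Sesn1). Leaving out 1 library gave 343 to 1156, 134 to 613 and 172 to 703 genes in these contrasts, and 1 to 1, 0 to 2 and 2 to 3 of the 10 genes; the lone library of a group was then assumed to vary like those of the other groups. The lowest counts came without RH/+ vehicle replicate 1 (343 and 172) and RH/RQ vehicle replicate 2 (134), and the highest of treated over RH/RQ vehicle without treated replicate 2 (613). The 6 calls among the 10 genes kept their direction under each scaling. The Phlda3 call in treated over RH/+ hearts was lost with TMM factors (limma adjusted p = 0.138), RLE factors (0.143) and CPM over nuclear genes (0.0507), and the others were kept. Of all calls, 69.8%, 59.6% and 81.5% were higher; TMM factors gave 56.6%, 46.7% and 59.1% higher, RLE factors 55.8%, 47% and 58.9%, and CPM over nuclear genes 76.8%, 44.8% and 77.1%. The first digit of the titles recurs across groups, and the labels do not say what it marks. Differences between the digits within a group correlated weakly between groups across genes (r = 0.13, 0.07 and -0.02). Each group gives only 1 such difference, and whether the digit marks a batch was not tested. With the digit as a replicate block, 1173, 567 and 715 genes were called, against 838, 344 and 480 without it. Of the 10 genes, 1, 2 and 3 were then called. With 2 libraries a group, effects as small as those of Bax or Trp53inp1 cannot be separated from the spread.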
